A study of Rattus norvegicus with 6 samples.

Results

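The 5 genes described here are Gfap, Aqp4, S100b, Slc1a2 and Slc1a3, a set of transcripts typical of astrocytes. They were taken by identifier from a table of 32402 rat Ensembl genes, as ENSRNOG00000002919, ENSRNOG00000016043, ENSRNOG00000001295, ENSRNOG00000005479 and ENSRNOG00000016163. All 5 identifiers were in the table, and all 5 passed the filter on low counts that left 16344 genes. The symbols came with the definition of the set. The deposited table lists identifiers alone, so the pairing was not checked against an annotation.

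Male Holtzman rats, an outbred laboratory stock, gave tissue of the hypothalamic paraventricular nucleus, and its RNA was sequenced. The 3 furosemide libraries came from rats injected with the loop diuretic furosemide at 10 mg/kg, which drives sodium into the urine, and then kept for 24 h on low-sodium food with distilled water. The 3 control libraries came from rats of the same sex, stock and region, and the labels do not say what these rats were injected with, fed or given to drink. Each library pooled tissue of 3 rats, so 9 rats stood behind each group, and the spread between libraries is a spread between pools and not between single rats. The design asks which transcripts of the nucleus differ 24 h after sodium loss.

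Astrocytes take up potassium and transmitter released by neurons, and in the paraventricular nucleus their processes wrap the cells that make vasopressin and oxytocin. GFAP is the intermediate filament protein of these cells and a common sign of their reaction to injury. AQP4 is the water channel of their endfeet on blood vessels and of their processes, and S100B is a calcium-binding protein of their cytoplasm that can also be secreted. SLC1A2 (GLT-1) and SLC1A3 (GLAST) are sodium-coupled transporters that clear glutamate from the extracellular space. In pooled tissue, fewer astrocytes and less RNA per astrocyte cannot be told apart. Reads of these genes from other cells in the tissue cannot be separated either.

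The 5 genes lie on 5 chromosomes, with positions from the RefSeq annotation of the rat assembly GRCr8. Gfap is on chromosome 10 at 88352987 to 88361661, Aqp4 on chromosome 18 at 6782389 to 6799034 and S100b on chromosome 20 at 12372345 to 12381159. Slc1a2 spans 130337 bases of chromosome 3, from 109460109 to 109590445, and Slc1a3 spans chromosome 2 from 59482707 to 59557808. RefSeq start sites matched all 5 symbols and numbered 9, with several for Aqp4, Slc1a2 and Slc1a3. The windows before the start of Gfap and before the upstream start of Slc1a2 are printed because these genes had the lowest and the highest fold change of the set. Each is 250 bases, 5′ to 3′ towards the start site, with every CG dinucleotide in capitals. The Gfap window is chr10:88361662-88361911 on the minus strand of GRCr8, and the Slc1a2 window is chr3:109459859-109460108 on the plus strand.
Gfap: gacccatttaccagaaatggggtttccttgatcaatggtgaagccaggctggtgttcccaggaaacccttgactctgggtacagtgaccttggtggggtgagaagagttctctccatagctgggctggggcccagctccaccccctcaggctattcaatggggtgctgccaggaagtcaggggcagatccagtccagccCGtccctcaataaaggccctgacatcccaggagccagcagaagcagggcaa
Slc1a2: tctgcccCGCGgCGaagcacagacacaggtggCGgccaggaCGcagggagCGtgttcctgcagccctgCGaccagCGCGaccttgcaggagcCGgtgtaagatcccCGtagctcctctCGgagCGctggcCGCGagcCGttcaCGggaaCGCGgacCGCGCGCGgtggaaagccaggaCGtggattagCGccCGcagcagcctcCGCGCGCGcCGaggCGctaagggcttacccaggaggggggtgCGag
The Gfap window held 1 CG dinucleotide and the Slc1a2 window 33, against a median of 5 over 33465 windows of that length. The second start of Slc1a2 had 2 in its window, S100b had 5, the starts of Aqp4 had 3 and 4, and the overlapping windows of Slc1a3 had 9 or 10. Neither printed window contained the TATA box searched as TATAAA, the promoter box CCAAT or the GC box searched as GGGCGG, on either strand, nor did any Slc1a3 window. In the order named, these motifs were in 12.9%, 34.0% and 30.5% of all windows. CCAAT was in the S100b window and in that of the first Aqp4 start, which also held GGGCGG. Such matches describe letters only.

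None of the 5 astrocyte genes passed an adjusted p of 0.05 between the furosemide and the control pools. Gfap and Aqp4 had means below control and S100b, Slc1a2 and Slc1a3 means above it, by amounts between -10.1% for Gfap and 7.60% for Slc1a2. For every one of the 5 the ranges of the 2 groups overlapped. Slc1a2 came nearest to the threshold and Gfap varied most from pool to pool.

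Over all genes, 0 of 16344 (0%) passed in the edgeR quasi-likelihood test after Benjamini-Hochberg adjustment, and 1322 (8.09%) had an unadjusted p under 0.05, as did 1 of the 5, Slc1a2. Other tools called some genes on these libraries. DESeq2 called 18 higher and 22 lower, the edgeR exact test 15 and 30, and limma-voom 0 and 0. None of these calls was one of the 5 astrocyte genes, whose adjusted p was 0.445 or more in every alternative tried. The 2 groups did not overlap for 13.5% of all genes and for 0 of the 5. The median log2 fold change of the 5 was 0.028 and their median size 0.055, against 0.00040 and 0.060 over all genes tested. Library totals ran from 20911950 to 22495415 counts, with all furosemide totals above all control totals (two-sided exact permutation p = 0.1, the smallest that 3 against 3 allows). Values below are CPM, counts scaled to a common library size after TMM adjustment. CPM does not correct for transcript length, so levels are compared between libraries and never between genes.

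Gfap, the astrocyte filament gene, stood at 243, 206 and 204 CPM in control libraries 1 to 3 and at 220, 156 and 211 CPM in furosemide libraries 1 to 3. Furosemide 2 was lowest of all 6, control 1 was highest, and the other 4 lay between 204 and 220 CPM with both groups among them. Means were 218 ± 21.8 and 196 ± 34.7 CPM for control and furosemide (SD, n = 3 each). On the log2 scale the fitted fold change was -0.15 (standard error 0.099, 95% interval -0.36 to 0.059), and the edgeR adjusted p was 0.732. Without furosemide 2 it was -0.014, without control 1 it was -0.066, and without furosemide 1 it was -0.25. Most of the fitted difference thus came with 2 of the 6 pools. No omission of 1 library brought the gene past the adjusted threshold. Without furosemide 1 the 95% interval was -27.8% to -1.42% (edgeR unadjusted p = 0.0348).

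Gfap varied more between pools of a group than most genes of 10 CPM or more. Its counts ran from 3416 to 5241, for which counting error alone gives a coefficient of variation of 1.38% to 1.71%. The observed coefficients were 10.0% in controls and 17.7% after furosemide. Its within-group SD of log2 CPM was 0.22, above that of 98.7% of the 10656 genes whose mean reached 10 CPM, for which the median was 0.062. The standard error from the spread of Gfap alone would be 0.18, and the 0.099 of the fit is smaller because the fit draws the variance of each gene towards that of others. The 95% interval of -22.4% to 4.16% therefore rests on that shared variance. With robust dispersions, which let outlying genes keep more of their own variance, the standard error was 0.17.

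**Figure D1:**
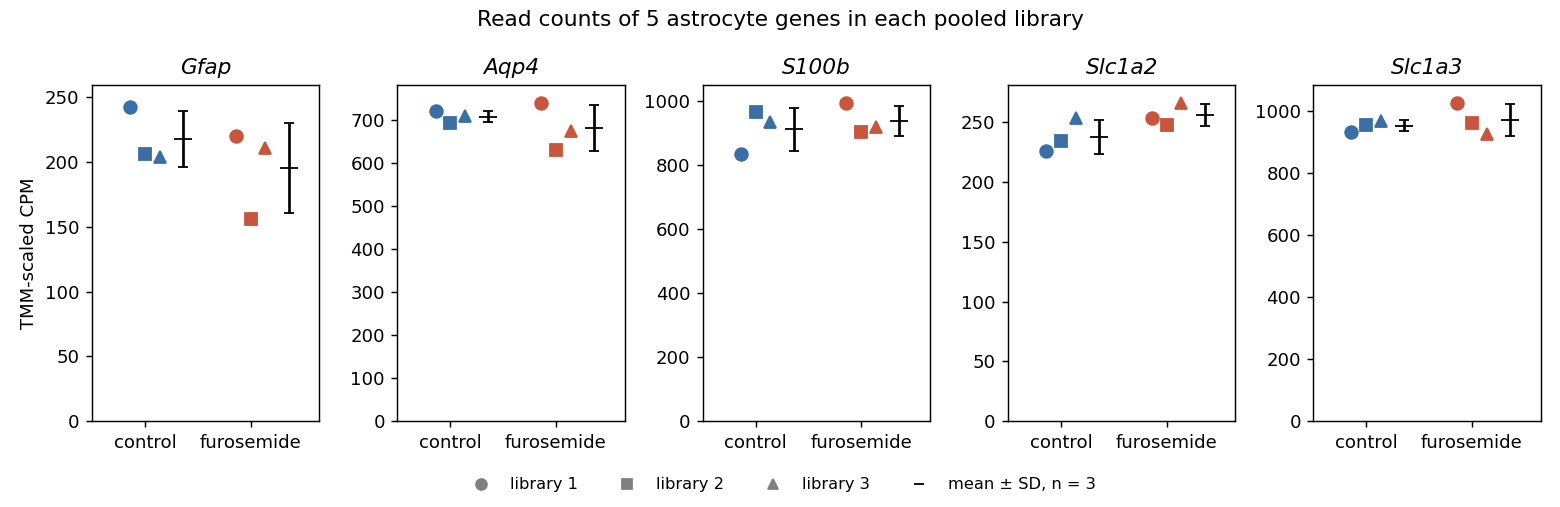
TMM-scaled CPM (vertical axis from 0, a separate scale in each panel) of the 5 astrocyte genes in 3 control and 3 furosemide libraries, with markers for single pools and black bars for the mean ± SD. Control and furosemide points overlap in every panel, and the Gfap point of furosemide 2, at 156 CPM, lies below the other 5 libraries.

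Aqp4, which encodes the water channel of astrocyte endfeet, was at 721, 695 and 711 CPM in the controls and at 740, 632 and 675 CPM after furosemide. The furosemide libraries held both the highest and the lowest value, and the 3 controls lay closely together between furosemide 3 and furosemide 1. Means were 709 ± 13.3 CPM and 682 ± 54.3 CPM (SD, n = 3 each). The log2 fold change came to -0.055 (standard error 0.047, edgeR adjusted p = 0.816), and the 95% interval ran from -10.2% to 3.26%. Without furosemide 2 it was -0.0027. Without furosemide 1 it was -0.12, with a 95% interval of -13.2% to -2.03% (edgeR unadjusted p = 0.0128, edgeR adjusted p = 0.587). Of the 3 furosemide pools, 2 lay below all controls for Aqp4 and 1 above all of them.

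S100b, which encodes the calcium-binding protein, had 834, 964 and 935 CPM in the controls and 992, 903 and 919 CPM after furosemide. Control 1 was lowest and furosemide 1 highest, and the remaining 4 libraries of both groups lay between 903 and 964 CPM. The group means were 911 ± 68.2 CPM and 938 ± 47.4 CPM (SD, n = 3 each), a log2 fold change of 0.042 (standard error 0.051, edgeR adjusted p = 0.885). Its sign did not hold, as the value was -0.017 without control 1. The 95% interval ran from -4.53% to 11.0%.

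Slc1a2, the gene of the transporter GLT-1, had 226, 234 and 253 CPM in the controls and 254, 248 and 266 CPM after furosemide. All 3 furosemide values lay above controls 1 and 2, while control 3 lay above furosemide 2 and just under furosemide 1. Means were 238 ± 14.1 CPM and 256 ± 9.15 CPM (SD, n = 3 each). The log2 fold change came to 0.11 (standard error 0.043), and the 95% interval, written as a percent difference, ran from 0.917% to 14.7%. The standard error from the spread of Slc1a2 alone would be 0.057, so this interval too rests on the shared variance. In the edgeR quasi-likelihood test the unadjusted p was 0.0281, which ranked 831 among the 16344 genes, and the adjusted p was 0.551. The exact permutation test on this gene alone gave a two-sided p of 0.2. The estimate stayed positive in all 17 alternatives, between 0.070 without control 1 and 0.15 without control 3. Of these, 11 refit the same 6 libraries, so their shared sign adds little. The 95% interval included 0 without control 1 (lower end -1.56%), without control 2 (-0.769%) and without furosemide 3 (-1.54%). It stayed above 0 without control 3 (lower end 4.47%), without furosemide 1 (0.177%) and without furosemide 2 (1.55%). The adjusted p of Slc1a2 ran from 0.445 to 0.780 over the 17 alternatives.

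Slc1a3, the gene of the other glutamate transporter, GLAST, stood at 934, 957 and 970 CPM in the controls and at 1028, 963 and 926 CPM after furosemide. The furosemide libraries again spanned the controls, with furosemide 1 highest and furosemide 3 lowest of the 6. Means were 954 ± 18.0 CPM and 972 ± 51.4 CPM (SD, n = 3 each), and the log2 fold change was 0.028 (standard error 0.039, edgeR adjusted p = 0.90). Without furosemide 1 it was -0.013. Its 95% interval of -3.79% to 8.04% was the narrowest of the 5.

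These intervals bound the change in the pooled tissue, within the variance model of the fit. For all 5 the fitted standard error was smaller than that from the spread of the gene alone. The latter was 0.068 for Aqp4, 0.076 for S100b and 0.046 for Slc1a3. All 5 intervals lay within 1.5-fold in either direction, as did those of 85.1% of all genes. Within 1.2-fold lay 4 of the 5, against 57.7% of all genes. Those shares are not matched for level and include genes with far fewer counts. The mean CPM of Gfap was above that of 94.8% of the genes tested and that of Slc1a3 above 99.5%, with the rest of the set between. Gfap was the exception at 1.2-fold. With robust dispersions its interval widened to -34.6% to 23.7% and left the 1.5-fold range, and in DESeq2 it was -27.9% to 12.3%. The other 4 stayed within 1.5-fold in both. A difference confined to some astrocytes of the nucleus is not bounded in this way.

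**Figure D2:**
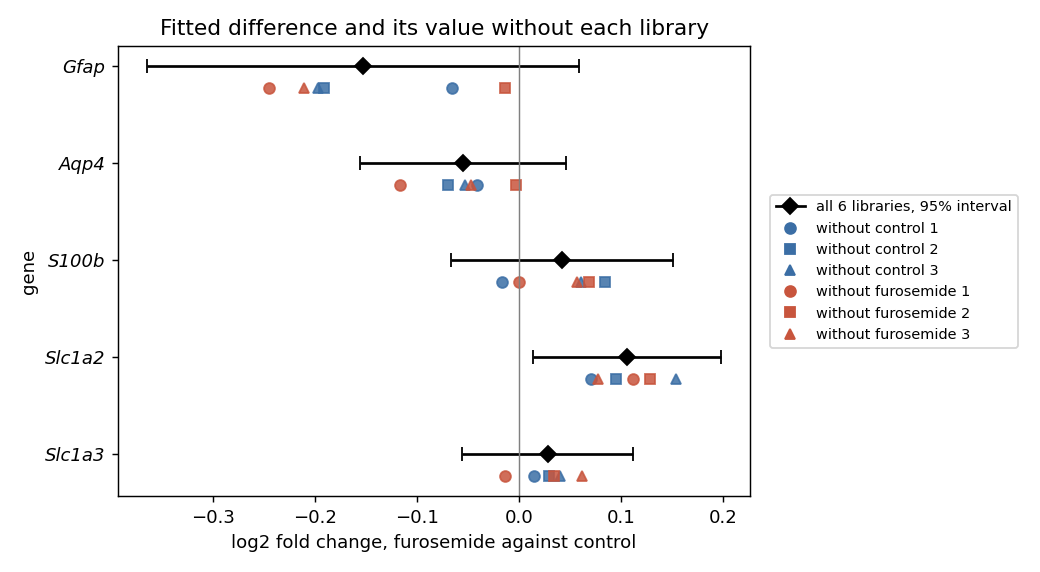
Log2 fold change of furosemide against control (horizontal axis) for each gene, with a black diamond and 95% interval for the fit to all 6 libraries and, below it, 1 coloured marker for each fit that leaves out the named library. The Gfap and Aqp4 markers without furosemide 2 lie next to 0, at -0.014 and -0.0027, and the Slc1a2 markers lie between 0.070 and 0.15.

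Ratios between 2 of the genes within a library do not depend on the scaling of the library. Of the 10 pairs, 0 had ratios that separated the groups, and the exact permutation p of each pair, adjusted over the 10, was 0.667 or more. The smallest raw p of this test is 0.1, so no pair could have passed the threshold. The test therefore cannot decide whether any ratio differed. The count of 0 was not set against ratios of other genes, so the values below are descriptive. The most displaced was Gfap to Slc1a2. Its count ratio was 1.08, 0.880 and 0.806 in controls 1 to 3 and 0.867, 0.630 and 0.795 in furosemide libraries 1 to 3, a difference of -0.27 in log2 with a raw exact permutation p of 0.2. Furosemide 1 lay above control 3 in this ratio, so the ranges overlapped. Between the transporters, the count ratio of Slc1a2 to Slc1a3 was 0.241, 0.245 and 0.261 in the controls and 0.247, 0.257 and 0.287 after furosemide. The displacement of 0.080 in log2 had a raw exact permutation p of 0.4, in a design where 0.1 is the smallest possible, and the ranges overlapped. Of the 10 ratios that of S100b to Slc1a3 moved least, by 0.017 in log2 (raw exact permutation p = 0.8).

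The 5 astrocyte genes departed from their own means the same way in furosemide 1 and in different directions in control 1. Furosemide 1 had the highest value of 3 genes among all 6 libraries, Aqp4, S100b and Slc1a3, and lay above the mean of the 6 libraries for all 5. Furosemide 2 was lowest in its group for 4 genes, all but Slc1a3. Its departure from the mean of the 6 libraries was -0.39 in log2 for Gfap and -0.14 for Aqp4. For S100b, Slc1a2 and Slc1a3 it was -0.032, 0.0075 and 0.0011. Control 1 departed in both directions, by 0.24 for Gfap, -0.15 for S100b and -0.13 for Slc1a2. The summed CPM of the 5 was 2958 to 3073 in controls and 2902 to 3234 after furosemide, with means of 3029 ± 62.0 and 3044 ± 171 (SD, n = 3 each).

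**Figure D3:**
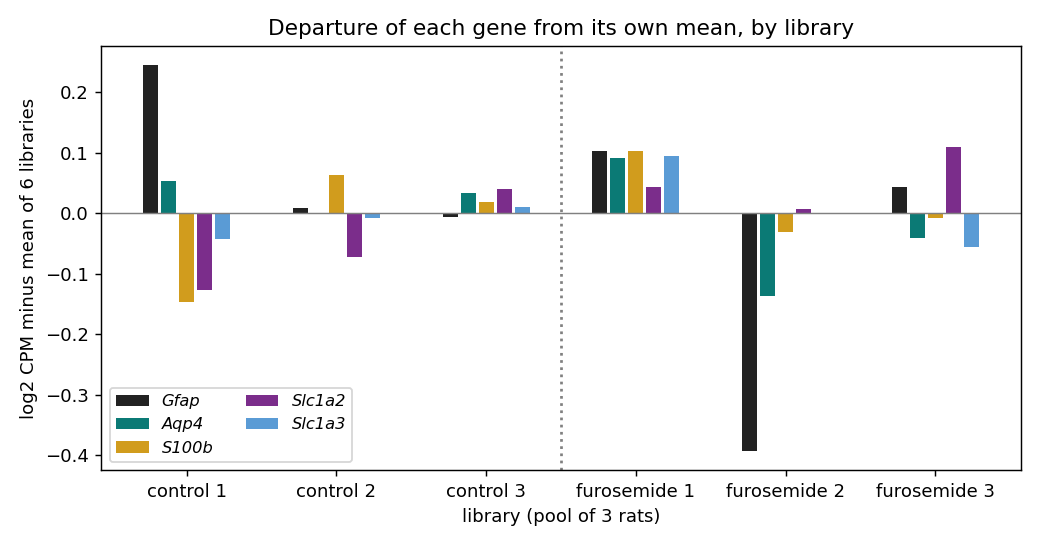
Log2 CPM of each gene minus its mean over the 6 libraries (vertical axis), in 3 control pools left of the dotted line and 3 furosemide pools right of it, with 1 bar colour for each gene. The bars of furosemide 1 all point up, the Gfap bar of furosemide 2 reaches -0.39, and control 1 has a raised Gfap bar beside lowered S100b and Slc1a2 bars.

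Correlations over the 6 libraries were computed for all 10 pairs. Gfap and Aqp4 had the highest, with Pearson's r = 0.86 (exact permutation p = 0.0347, adjusted over 10 pairs 0.347) and Spearman's rho = 0.71 (exact permutation p = 0.136, adjusted 0.994). Without the 2 libraries farthest from the median of Gfap, control 1 and furosemide 2, r was 0.53. Leaving out extreme libraries narrows the range and can by itself lower r. The fall therefore cannot show how far the relation rests on those pools. On deviations from the group means, r of Gfap and Aqp4 was 0.84. S100b and Slc1a3 followed with r = 0.70 (exact permutation p = 0.135, adjusted 0.674) and rho = 0.60 (exact permutation p = 0.242, adjusted 0.994). Their r fell to 0.16 without control 1 and furosemide 1, with the same limit. The transporters Slc1a2 and Slc1a3 had r = 0.20 (exact permutation p = 0.710, adjusted 0.881) and rho = 0.14 (exact permutation p = 0.803, adjusted 1.0). None of the 10 pairs passed after adjustment. The labels give no batch within which these could be repeated.

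**Figure D4:**
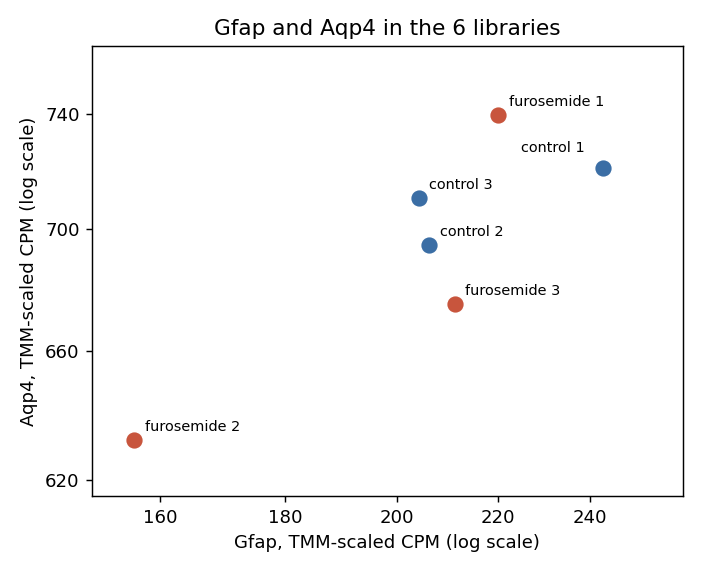
TMM-scaled CPM of Gfap (horizontal axis, log scale) against Aqp4 (vertical axis, log scale), with 1 point for each of the 6 pooled libraries and colours for the groups. Furosemide 2 lies alone at the lower left, at 156 and 632 CPM, and the other 5 libraries show no separation by group.

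The mean profile of the 5 genes over the 6 libraries was set against 10651 other genes at 10 CPM or more on average. This profile, in log2 from the mean of the libraries, was 0.087 in furosemide 1 and -0.11 in furosemide 2. Elsewhere it lay between -0.0035 and 0.019. In furosemide 2 Gfap was at -0.39 and the median of the 5 at -0.032, so the profile there leans on Gfap. Pearson's r was 0.9 or more for 45 genes and -0.9 or lower for 45. The most alike were ENSRNOG00000015636 (r = 0.98) and ENSRNOG00000015986 (r = 0.97), and the most opposed were ENSRNOG00000058593 and ENSRNOG00000024170 (both r = -0.98). ENSRNOG00000015636 ranged only from 16.2 CPM in furosemide 2 to 21.3 CPM in furosemide 1, with controls at 18.2 to 18.8 CPM. With 6 points and so many genes these values describe likeness only, and no table used here pairs these identifiers with symbols. For the same reason the list of other astrocyte genes, and the markers of oligodendrocytes, microglia, endothelium, ependyma and neurons, could not be looked up. Whether the tissue composition of control 1 or furosemide 2 differed was not tested.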

How the data were processed

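The deposited table holds the authors' raw read counts per gene for 6 libraries, 3 control and 3 furosemide, each from 3 pooled rats. The tools FastQC, TopHat, HTSeq and edgeR stand without versions in the list that comes per the submitters' processing notes. The genome build, the annotation and the strand setting were not given in the sources used here, and reads of overlapping or antisense genes cannot be separated. Libraries were made with a TruSeq mRNA kit, per the labels' protocols, which selects polyadenylated RNA.

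The 5 genes and the lists, and the tests and alternatives written for them, were chosen with earlier results of these data known. The 5 are named whatever their result, with the 2 genes of highest and the 2 of lowest r to their mean profile. Counts were analysed in R 4.3.3 with edgeR 4.0.16. The default filterByExpr setting kept 16344 genes with 99.9% of counts, TMM factors scaled the libraries, and furosemide was compared with control over all genes by the quasi-likelihood F test (legacy form) with no other term. Adjustment was by Benjamini-Hochberg over all genes tested, with a threshold of 0.05. Standard errors of the quasi-likelihood fits are the size of the log2 fold change divided by the square root of F. Their intervals are 95% intervals on moderated degrees of freedom. DESeq2 intervals use its own standard error and a normal quantile, so they are not built alike. Ratios, totals and single genes were tested by exact permutation of libraries between the groups, two-sided, in scipy 1.17.1. Correlations were tested, two-sided, over all pairings of the values of 2 genes across the 6 libraries, without regard to group. The fit was also run on counts simulated from its own mean levels and dispersions, which cannot check its variance model. Alternatives were 3 other scalings, 2 other filters, limma-voom (limma 3.58.1), the edgeR exact test, DESeq2 1.42.0, robust dispersions, a replicate block, omission of each library and, chosen only after seeing the data in this table, the non-legacy fit. The reference gene table (47357 rows, GRCr8) lists 0 Ensembl identifiers, so lists fixed by symbol could not be used.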

Additional observations from a re-analysis of the deposited data

How the results depend on the processing

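The 5 fold changes kept their direction and stayed short of the adjusted threshold under scaling by RLE, by upper quartile or by library size, both other filters, DESeq2, the edgeR exact test, limma-voom, robust dispersions, the replicate block and the non-legacy fit. Over these, Gfap ran from -0.16 to -0.15, Aqp4 from -0.058 to -0.052, S100b from 0.037 to 0.045, Slc1a2 from 0.097 to 0.11 and Slc1a3 from 0.027 to 0.031. Leaving out 1 library moved Gfap between -0.25 and -0.014, Aqp4 between -0.12 and -0.0027, Slc1a2 between 0.070 and 0.15, S100b between -0.0167 and 0.0837 and Slc1a3 between -0.0135 and 0.0618. S100b reversed without control 1 and, at -1.93e-05, without furosemide 1, and Slc1a3 reversed without furosemide 1. The standard error of Gfap was 0.17 with robust dispersions and 0.16 in DESeq2, against 0.099. With the replicate block Gfap was -0.16 (edgeR adjusted p = 0.611) and 0 genes were higher and 1 lower. Equal-numbered libraries had correlated deviations of -0.13, -0.0071 and -0.033 over genes of at least 10 CPM, and were not taken as pairs, and no library correlated best with its own number. The count of 0 genes past the threshold became 12 higher and 16 lower without a low-count filter, 18 and 22 in DESeq2, 15 and 30 in the exact test, and 3 and 1 with robust dispersions. The cause was not tested. Leaving out 1 library gave 0 to 6 higher and 0 to 11 lower, the highest without control 1, with 1 lower without control 3. DESeq2 had 689 genes at an unadjusted p under 0.05. Genes without overlap numbered 3729 to 4165 when 1 library was left out, as fewer samples make separation easier. Ratios that separated the groups then numbered 0 to 3 of 10. No pair of genes passed the correlation test under RLE or library-size scaling. The smallest count behind any value of the 5 genes was 3416.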
